A study of Homo sapiens with 12 samples.

Results

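The 87 protein-coding histone genes described here are those whose older symbol starts with HIST1H, HIST2H, HIST3H, HIST4H, H1F, H2AF or H3F, as the synonyms of a RefSeq gene table give it. Of these, 71 carry a symbol of the first 4 kinds and lie in the histone gene clusters (called clustered below), and 16 are variant genes that lie apart. A further 34 pseudogenes and 1 RNA gene with such symbols were left out. A probe set paired with exactly 1 gene was listed for 53 of the 87 (43 clustered, 10 variant), of 19775 genes with such a probe set in the series. Of the 53 genes, 36 (28 clustered, 8 variant) passed a filter on low signal and were tested among 13673 genes, and 17 did not pass. The rule goes by name and uses no measured value, but it was chosen with earlier results of these data known.

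The study profiled U2OS, a human bone tumour (osteosarcoma) line whose p53 is wild type per the labels, on 12 Affymetrix U133 Plus 2.0 arrays, 3 for each of 4 groups. Cells received doxorubicin, which traps topoisomerase II on broken DNA, at 0.6 µg/ml for 24 hours, and their controls were untreated. Other cells received nutlin-3, which frees p53 from MDM2 without breaking DNA, at 10 µM for 24 hours, and their controls received the solvent DMSO at 0.1%. The series text sets each agent against its own control. All groups are this 1 line, and nothing in the labels says that replicates were grown apart, so a p-value here speaks of the spread among these arrays, which could be technical.

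Histones package DNA into nucleosomes, each a spool of H2A, H2B, H3 and H4, with linker histone H1 at the DNA entry. The clustered genes exist in many near-identical copies, are transcribed mainly while DNA is replicated, and give messages that usually end in a stem-loop instead of a poly(A) tail, although several also give polyadenylated messages. The variant genes are transcribed outside replication as well and give polyadenylated messages; they include H2A.X, which is phosphorylated beside DNA breaks, H2A.Z, the macroH2A proteins, H3.3 and H2A.J, which is known to build up in senescent human fibroblasts with lasting DNA damage. H2AX itself is known to give both kinds of message. The labelling kit primes on poly(A) tails, so the signals of clustered genes chiefly report polyadenylated messages.

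Clustered genes differ from most genes in the letters just before their start, so the promoters of 4 genes that the results turn on are shown first. RefSeq promoter windows (assembly GRCh38.p14, 250 bases before to 50 after the start, read 5′ to 3′ on the gene's strand) were found for 35 of the 36 tested genes, all but H4C1. Capitals mark matches to the CCAAT box (CCAAT), the TATA box (TATAAA), the octamer that is known to bind OCT1 in H2B promoters (ATTTGCAT) and the core of an element known from cell cycle promoters (TTTGAA). Each was searched on both strands, so a match on the other strand shows as its reverse complement, and neighbouring matches may overlap. The windows lie at chr12:14774155-14774454 (+ strand) for H2AJ, chr11:119095416-119095715 (− strand) for H2AX, chr6:26123922-26124221 (+ strand) for H2AC6 and chr6:26183511-26183810 (+ strand) for H2BC6.
H2AJ: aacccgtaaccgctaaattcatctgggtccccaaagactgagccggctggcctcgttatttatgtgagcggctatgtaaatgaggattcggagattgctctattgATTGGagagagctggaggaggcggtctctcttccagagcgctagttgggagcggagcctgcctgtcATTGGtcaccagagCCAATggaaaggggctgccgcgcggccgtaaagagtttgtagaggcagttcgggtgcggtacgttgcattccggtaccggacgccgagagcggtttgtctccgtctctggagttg
H2AX: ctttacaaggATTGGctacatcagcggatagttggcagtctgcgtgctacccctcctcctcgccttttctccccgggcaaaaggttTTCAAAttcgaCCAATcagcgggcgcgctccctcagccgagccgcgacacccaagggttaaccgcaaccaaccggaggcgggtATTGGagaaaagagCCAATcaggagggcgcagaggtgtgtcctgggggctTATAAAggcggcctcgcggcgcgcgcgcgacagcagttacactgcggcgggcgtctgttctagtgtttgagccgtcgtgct
H2AC6: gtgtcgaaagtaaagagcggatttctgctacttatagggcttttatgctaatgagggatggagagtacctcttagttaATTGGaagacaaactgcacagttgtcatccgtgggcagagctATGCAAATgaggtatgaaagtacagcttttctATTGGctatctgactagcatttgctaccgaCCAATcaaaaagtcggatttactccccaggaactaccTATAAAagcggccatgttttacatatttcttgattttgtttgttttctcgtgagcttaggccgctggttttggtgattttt
H2BC6: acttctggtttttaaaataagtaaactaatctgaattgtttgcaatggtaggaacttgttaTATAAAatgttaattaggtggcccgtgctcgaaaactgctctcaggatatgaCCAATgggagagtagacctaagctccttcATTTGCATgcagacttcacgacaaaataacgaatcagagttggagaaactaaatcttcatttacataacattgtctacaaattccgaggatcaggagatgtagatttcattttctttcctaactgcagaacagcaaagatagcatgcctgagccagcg
The octamer was found for 8 of 10 tested H2B genes (80.0%), for 11 of 27 tested clustered genes (40.7%) and for 0 of 8 tested variant genes. It was found in 1.77% of all 35116 promoter windows. A histone gene counted once if any of its windows matched, and some had several windows (4 for H3-3A). The shares of all count every window singly, so the measures differ, and genes with several windows had more room for a match. CCAAT was found for 22 of the 27 clustered genes (81.5%) and 6 of the 8 variant genes (75.0%), against 34.6% of all windows. TATAAA was found in 18 of the 27 (66.7%) and 3 of the 8 (37.5%), against 11.5% of all, and TTTGAA in 11 of the 27 (40.7%) and 2 of the 8 (25.0%), against 15.2% of all. Many clustered genes are divergent neighbours, and these shares therefore count some bases more than once: the window of H2AC6 shares 255 bases with that of H2BC4 on the other strand, H2BC14 shares 256 with H2AC14, and H2BC15 shares 293 with H2AC15. Of the 53 genes with a probe set of their own, 40 lie on chromosome 6.

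On the brightest probe set of each gene, doxorubicin lowered 14 of the 36 histone genes tested (38.9%) and raised 1 (2.78%). Some other probe sets of MACROH2A1 and some sets shared between genes also rose, as given below. Of the 28 clustered genes tested, 11 fell (39.3%) and 0 rose, where 25.6% of all genes tested fell and 30.1% rose. Their median log2 change was -0.32, against 0.08 over all genes. A gene was called when its limma adjusted p over all 13673 genes was under 0.05, and changes are on a scale of log2(signal + 16). Of the 8 variant genes, 3 fell (H1-10, H2AX and H2AZ2), 1 rose (H2AJ) and 4 were not called (median -0.14). In bulk RNA, fewer cells in a given state and less message per cell cannot be told apart.

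The 3′ to 5′ ratio of the ACTB control probe sets was 3.12 ± 0.577 with doxorubicin, against 1.53 ± 0.0754 in untreated cells (SD, n = 3 each, exact two-sided permutation p = 0.1, the smallest that 3 against 3 allow). It was 1.31 ± 0.026 with nutlin-3, against 1.28 ± 0.0281 with DMSO, and the GAPDH ratio was 1.07 with doxorubicin against 1.02 untreated. The doxorubicin array with the lowest ACTB ratio, 2.48, still lay above the untreated arrays (1.44 to 1.58). A fit with it as the only doxorubicin array assumes that it varies like the other groups, and gave log2 changes of 1.98 for H2AJ, -1.63 for H2AX, -1.84 for H1-10, -1.40 for H2AC6 and -1.45 for H2BC6. The value of H2BC3 was -1.25 there, against -1.91 with all 3 arrays. Of the clustered genes 9 were called lower, and H2BC5 (adjusted p = 0.171) and H3C1 (adjusted p = 0.105) lost their calls. Of the variants H2AZ2 lost its call (adjusted p = 0.0575), and MACROH2A2 was called lower at -0.85 (adjusted p = 0.0149), against -0.10 and no call with all 3. The part of RNA quality in the histone changes was not tested.

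**Figure D1:**
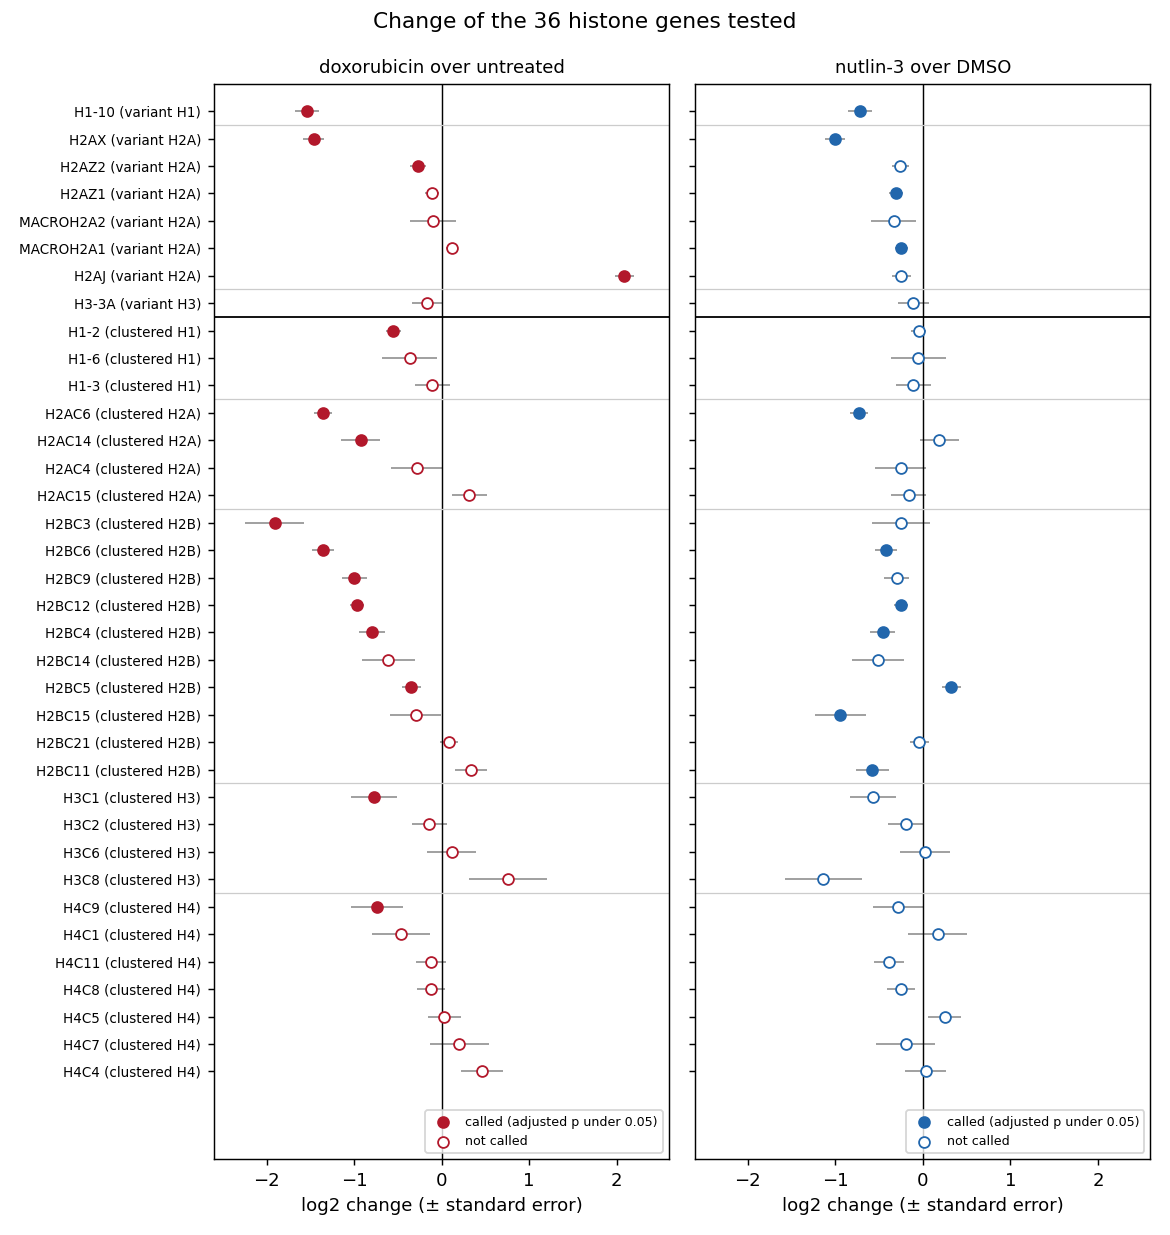
Log2 change of each of the 36 tested histone genes with doxorubicin over untreated cells (left) and with nutlin-3 over DMSO (right), with standard errors. Filled points passed an adjusted p of 0.05; genes are grouped by class and family. H2AJ stands alone on the right of the doxorubicin panel at 2.09, and 11 clustered genes lie filled on its left.

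On the brightest probe set of each gene, H2AJ, the gene of the H2A.J variant, was the only 1 of the 36 called higher with doxorubicin. Its signal was 5358, 5654 and 6374 on the 3 doxorubicin arrays, against 1191, 1568 and 1316 on the untreated arrays, 1140.4, 1265 and 1444 with nutlin-3 and 1513, 1601 and 1437 with DMSO. Every doxorubicin array lay far above every other array, and the other 3 groups lay close together. The mean was 5796 ± 522 with doxorubicin against 1358 ± 192 in untreated cells (SD, n = 3 each), 4.27-fold higher, a log2 change of 2.09 (SE 0.11, limma adjusted p = 1.32e-10). With nutlin-3 the log2 change was -0.24 (adjusted p = 0.123), not called. The 2 changes differed by 2.33 (SE 0.16, adjusted p = 1.34e-08). Its promoter, printed above, holds 3 CCAAT matches and neither TATAAA nor the octamer.

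All 4 probe sets of H2AJ were called higher with doxorubicin in a fit of 32768 probe sets, where 23.4% were called higher and 23.6% lower. Their log2 changes ran between 0.93 and 2.09. With nutlin-3, where 8.33% of probe sets were called higher and 9.49% lower, none of the 4 was called, and their changes ran between -0.24 and -0.03. The 2 brightest of the 4 are of a design that may also bind related transcripts, and the smallest rise came from the 1 set designed against a single transcript.

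H2AX, the gene of the variant that is phosphorylated beside DNA breaks, fell with both agents. Its signal was 3103, 3713 and 3682 with doxorubicin, against 8775, 10179.8 and 10014 in untreated cells. With nutlin-3 it was 2697, 3478 and 3627, against 5753, 7226 and 6682 with DMSO. In both comparisons every treated array lay below every control array. The log2 change was -1.46 with doxorubicin (SE 0.12, adjusted p = 1.65e-08) and -1.01 with nutlin-3 (SE 0.12, adjusted p = 4.92e-06). The treated means were 3499 with doxorubicin and 3267 with nutlin-3, a pair that was not tested. The controls differed, with a mean of 6554 with DMSO against 9656 untreated, a log2 change of -0.56 (adjusted p = 0.00415) that was not called with arrays centred on their medians or with the mean of all its probe sets (adjusted p up to 0.377). The 2 agents' changes differed by -0.46 (adjusted p = 0.0369), a call that was lost under 11 of 25 alternatives, among them the loss of 2 untreated, 2 DMSO, 2 nutlin-3 or 1 doxorubicin array, left out singly (adjusted p up to 0.0996). Of its 4 probe sets 3 passed the filter, and these 3 were called lower with both agents.

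H1-10, the gene of a replication-independent linker histone on chromosome 3, gave the largest fall among the variants with doxorubicin. Its signal was 1013, 1455 and 1341 with doxorubicin, against 3963, 3748 and 3315 in untreated cells. With nutlin-3 it was 2003, 1486 and 1847, against 2896, 3277 and 2599.8 with DMSO. Treated and control arrays did not overlap with either agent. The log2 change was -1.53 with doxorubicin (SE 0.14, adjusted p = 5.72e-08) and -0.72 with nutlin-3 (SE 0.14, adjusted p = 0.000707). The doxorubicin change minus the nutlin-3 change was -0.82 (SE 0.19, adjusted p = 0.00281).

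The H2A.Z genes gave small values. H2AZ1, whose product marks nucleosomes near gene starts, had signals of 22364, 22254 and 25148 with nutlin-3, against 28709, 29739 and 27739 with DMSO, and 24703, 24512 and 28545 with doxorubicin, against 27135, 28905 and 27572 untreated. The nutlin-3 arrays lay below the DMSO arrays, and the doxorubicin and untreated arrays overlapped. Its log2 change was -0.31 with nutlin-3 (SE 0.08, adjusted p = 0.00771) and -0.11 with doxorubicin (adjusted p = 0.258), and the nutlin-3 call was lost with arrays centred on their medians (adjusted p = 0.0589). Its second probe set, about as bright, was called with neither agent, at -0.20 with nutlin-3 (adjusted p = 0.0666 over probe sets) and -0.03 with doxorubicin. H2AZ2, its near twin, had signals of 10755, 10876 and 12086 with doxorubicin, against 14319, 15152 and 11403 untreated, and these arrays overlapped. Its log2 change was -0.27 (SE 0.10, adjusted p = 0.024), and the call was lost when either of 2 untreated or either of 2 doxorubicin arrays was left out. It was also lost with DMSO as the control (-0.11, adjusted p = 0.313), under quantile scaling (-0.18, adjusted p = 0.0962), without an intensity trend (adjusted p = 0.0581) and in the fit of 6 arrays (adjusted p = 0.0537). The value with nutlin-3 was -0.26 (adjusted p = 0.0592). Across its 4 probe sets, 3 were called lower with doxorubicin and 3 with nutlin-3, and the values over all 4 ran between -0.59 and -0.27 with doxorubicin and between -0.79 and -0.26 with nutlin-3.

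MACROH2A1, which encodes an H2A with a large globular tail domain that is enriched on the inactive X chromosome and in senescent cells, gave a reading that depended on the probe set. Its brightest probe set had signals of 10859, 11330.1 and 11619 with doxorubicin, against 9828, 10936 and 10415 untreated. With nutlin-3 it had 8660.0, 8852 and 9097, against 10181, 10796 and 10548 with DMSO. The doxorubicin and untreated arrays overlapped, while every nutlin-3 array lay below every DMSO array. The log2 change was 0.12 with doxorubicin (adjusted p = 0.163) and -0.24 with nutlin-3 (SE 0.07, adjusted p = 0.0148), a difference of 0.36 (adjusted p = 0.00771). The call of the difference was lost with arrays centred on their medians (0.21, adjusted p = 0.356) and with doxorubicin array 1 alone (adjusted p = 0.0583), and its value ran up to 0.93 with other probe sets. The fall with nutlin-3 was no longer called without DMSO replicate 2 or 3, with arrays centred on their medians or with other choices of probe set (adjusted p up to 0.559 over the alternatives). Of its 7 probe sets 5 passed the filter, of which 3 were called higher with doxorubicin (1.16, 0.77 and 0.47) and the other 2 were not (0.12 and -0.13). With nutlin-3, only 1 of the 5, the brightest, was called lower, and the values of all 5 ran between -0.26 and 0.06. The gene is known to give spliced forms, and which of them each probe set reads was not tested. MACROH2A2, its paralog, and H3-3A, an H3.3 gene, were called with neither agent, at -0.10 and -0.16 with doxorubicin and -0.33 and -0.11 with nutlin-3. H3-3A was read on a dim probe set, with means of 210 with doxorubicin and 236 untreated. Of 8 brighter sets shared by the H3.3 genes, 4 were called higher with doxorubicin (0.50 to 0.69) and 0 with nutlin-3. The sets called were those also paired with MIR4738. The sets also paired with H3P6 ran between -0.06 and 0.17 with doxorubicin, and none of them was called. Which H3.3 gene each set reads was not tested.

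**Figure D2:**
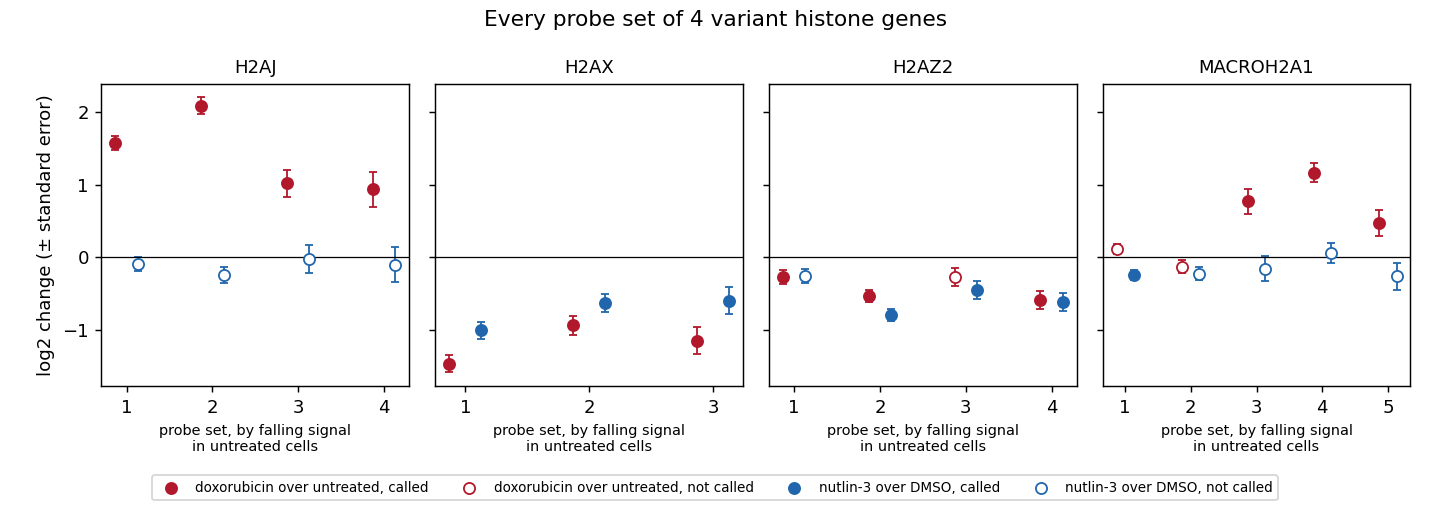
Log2 change of every probe set of H2AJ, H2AX, H2AZ2 and MACROH2A1 that passed the filter and was paired with that gene alone, with doxorubicin over untreated cells (red) and nutlin-3 over DMSO (blue), with standard errors; filled points were called. All 4 H2AJ sets are filled above 0 with doxorubicin, while the 5 MACROH2A1 sets run between -0.13 and 1.16.

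Among the clustered genes the H2B family carried the most calls with doxorubicin: 6 of 10 tested H2B genes fell, at a median of -0.70. The others were 2 of 4 H2A genes (median -0.60), 1 of 3 H1 genes (-0.36), 1 of 4 H3 genes (-0.01) and 1 of 7 H4 genes (-0.12). Of all genes tested, 25.6% were called lower with doxorubicin. The H3 share (25%) lay near that and the H4 share (14.3%) below it. The difference between families was not tested.

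H2BC6 had signals of 1612, 1534 and 2079.8 with doxorubicin, against 4541, 4781 and 4041 in untreated cells, with no overlap. Its log2 change was -1.36 (SE 0.13, adjusted p = 1e-07). H2BC9 had 1225, 1050.1 and 1604 with doxorubicin, against 2215, 2668 and 2826 untreated, again apart, and fell by 1.00 on the log2 scale (SE 0.14, adjusted p = 1.19e-05). Both encode H2B, both were read on a probe set design that may also bind related transcripts, and both promoters hold the octamer. The octamer was also found for H2BC3, H2BC4 and H2BC12, which fell, and for H2BC11, H2BC14 and H2BC21, which were not called with doxorubicin. It was not found for H2BC5, which fell, or for H2BC15, which was not called. The part of the octamer in these changes was not tested. H2BC12 had 13315, 12401 and 11975 with doxorubicin, against 23945, 23775 and 26002 untreated. Every doxorubicin array lay below every untreated array, a log2 change of -0.97 (SE 0.08, adjusted p = 2.34e-08). H2BC3 gave the largest fall, -1.91 (SE 0.34, adjusted p = 0.000125), but on dim signals of 53.5, 10.9 and 30.2 with doxorubicin against 122, 242 and 111 untreated. Of its doxorubicin arrays 2 lay under 49.3, the signal at the filter, and the change ran between -2.46 and -1.20 over the alternatives. H2BC4 fell by 0.80 and H2BC5 fell by 0.34, and the call of H2BC5 was lost without untreated replicate 3 or doxorubicin replicate 2 (adjusted p up to 0.171 over the alternatives).

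H2AC6, which encodes an H2A and faces H2BC4 across a shared promoter, had signals of 2775, 2586 and 3273 with doxorubicin, against 6819, 7708 and 7536 in untreated cells. With nutlin-3 it had 3414, 4105 and 4376, against 6338, 6654 and 6642 with DMSO. All treated arrays lay below all of their control arrays with both agents. The log2 change was -1.35 with doxorubicin (SE 0.10, adjusted p = 7.89e-09) and -0.73 with nutlin-3 (SE 0.10, adjusted p = 3.41e-05). Its divergent neighbour H2BC4 had 318, 394 and 309 with nutlin-3, against 502, 535 and 388 with DMSO, a log2 change of -0.46 (SE 0.15, adjusted p = 0.0279) on arrays that overlapped narrowly. In the pair H2BC14 and H2AC14 the doxorubicin changes were -0.61 (not called) and -0.93, and in the pair H2BC15 and H2AC15 they were -0.29 and 0.32, neither called.

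H2AC14 had signals of 323, 291 and 335 with doxorubicin, against 734, 811 and 387 in untreated cells, and 340.2, 331 and 384 with nutlin-3, against 301, 232 and 409 with DMSO. It was high on 2 of the 3 untreated arrays, and the DMSO arrays lay near the doxorubicin ones. Its log2 change with doxorubicin was -0.93 (SE 0.22, adjusted p = 0.00207), but 0.043 when the DMSO arrays served as the control (adjusted p = 0.881). The same held for the linker histone gene H1-2, with 9209.5, 9765 and 11402 with doxorubicin and 14842, 15299.9 and 14319 untreated, against 9284, 10645 and 9207 with DMSO. It fell by 0.55 against untreated cells, and the value against DMSO was 0.057 (adjusted p = 0.585). H4C9 fell by 0.74, was at 0.082 against DMSO (adjusted p = 0.825), and lost its call without untreated replicate 1 or 3 or doxorubicin replicate 1. H3C1 fell by 0.77 on signals of 59.2 to 77.5 with doxorubicin and 103 to 183 untreated, and its call was lost without untreated replicate 2 or doxorubicin replicate 2 and against DMSO (-0.34, adjusted p = 0.272). With DMSO as the control 7 clustered genes were lower and 3 higher with doxorubicin. The shares of all genes under that control were not computed, so these counts have no background beside them.

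The 17 clustered genes not called with doxorubicin included H2BC21, an H2B gene on chromosome 1, at 0.08 (adjusted p = 0.531). The 3 H3 genes not called ran between -0.14 and 0.76, the 6 H4 genes not called between -0.46 and 0.46, and the linker genes H1-3 and H1-6 were at -0.11 and -0.36. The 17 genes under the filter, 15 clustered and 2 variant, were not tested.

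**Figure D3:**
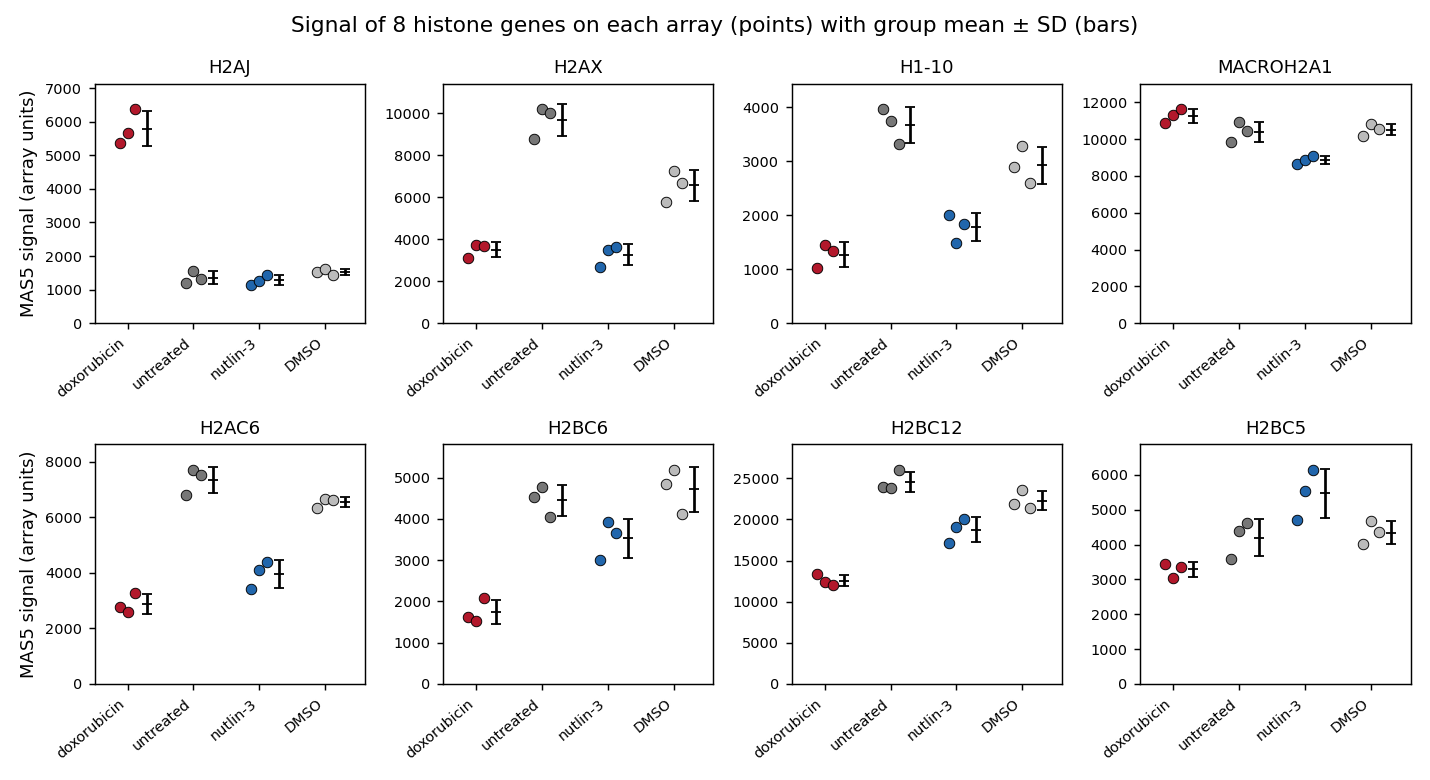
MAS5 signal of 8 histone genes on each of the 3 arrays of every group (points), with the mean ± SD beside them, on linear axes that start at 0. H2AJ is high with doxorubicin alone, and H2AX, H1-10 and H2AC6 are low with both agents, while H2BC5 is low with doxorubicin and high with nutlin-3.

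With nutlin-3, 6 of the 28 clustered genes fell (21.4%) and 1 rose (3.57%), where 13.9% of all genes fell and 12.5% rose. The median log2 change was -0.25, against 0.01 over all genes. Of the 8 variants 4 fell, at a median of -0.28, and 0 rose. The clustered calls were 5 lower and 1 higher of 10 H2B genes and 1 lower of 4 H2A genes, with none among 3 H1, 4 H3 and 7 H4 genes. The count depended on single arrays: without DMSO replicate 2 the count was 2, without DMSO replicate 1 and without nutlin-3 replicate 1 or 3 it was 3, and at an adjusted p under 0.01 it was 1 (H2AC6).

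H2BC15 had signals of 53.9, 32.5 and 37.8 with nutlin-3, against 79.3, 69.4 and 144 with DMSO, with no overlap. Its log2 change was -0.94 (SE 0.29, adjusted p = 0.0237), on signals of which 2 lay under the filter. H2BC11 had 163, 156 and 143 with nutlin-3, against 178, 308 and 242 with DMSO, a log2 change of -0.58 (SE 0.19, adjusted p = 0.0303). The nutlin-3 arrays lay below all DMSO arrays, and within the range of the untreated ones, 134, 147 and 165. H2BC11 was higher with DMSO than in untreated cells (log2 0.62, adjusted p = 0.0348). H2BC6 and H2BC12 fell by 0.42 and 0.25. Over the alternatives the adjusted p of these nutlin-3 calls ran up to 0.143 for H2BC15 (lost without DMSO replicate 3 or nutlin-3 replicate 2 or 3) and 0.173 for H2BC11 (lost without DMSO or nutlin-3 replicate 2 or 3). It ran up to 0.127 for H2BC4, 0.0997 for H2BC6 and 0.125 for H2BC12, each lost without DMSO replicate 1 or 2 or nutlin-3 replicate 1, and H2BC4 also without nutlin-3 replicate 3 and H2BC12 without nutlin-3 replicate 2.

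H2BC5 was the 1 clustered gene called higher with nutlin-3 and lower with doxorubicin. Its signal was 4716, 5547 and 6141 with nutlin-3, against 4012, 4667 and 4358 with DMSO. With doxorubicin it was 3456, 3047 and 3362, against 3599, 4378 and 4613 untreated. In both comparisons the arrays did not overlap, in opposite directions. The log2 change was 0.32 with nutlin-3 (SE 0.11, adjusted p = 0.0358) and -0.34 with doxorubicin (SE 0.11, adjusted p = 0.0128), and the 2 differed by -0.67 (adjusted p = 0.00243). Its second probe set was called with neither agent (-0.11 with doxorubicin and 0.04 with nutlin-3). The rise with nutlin-3 was lost with the mean of both sets (0.18, adjusted p = 0.323) and with arrays centred on their medians (0.30, adjusted p = 0.166). That rise was also lost when DMSO replicate 1 or 3 or nutlin-3 replicate 2 or 3 was left out. With the mean of both sets, the fall with doxorubicin (-0.23) and the difference (-0.41, adjusted p = 0.0767) lost their calls too.

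The change with doxorubicin was tested against the change with nutlin-3 gene by gene. It was more negative for 8 of 28 clustered genes (28.6%) and more positive for 2 (7.14%), where 17.7% of all genes were called more negative and 21.8% more positive. Among the 8 variants, 2 were more negative (H1-10 and H2AX) and 2 more positive (H2AJ and MACROH2A1). The 8 clustered genes were 5 H2B genes (H2BC3, H2BC5, H2BC6, H2BC9 and H2BC12), 2 H2A genes (H2AC6 and H2AC14) and H1-2. H2BC12 gave -0.72 (SE 0.11, adjusted p = 9.05e-05), H2BC6 gave -0.94 (SE 0.18, adjusted p = 0.000511) and H2BC3 gave -1.66 (SE 0.47, adjusted p = 0.0107). The count stayed at 8 when any 1 array was left out and was 5 at an adjusted p under 0.01.

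The 2 clustered genes with a more positive difference were H2BC11 (0.91, SE 0.26, adjusted p = 0.0114) and H3C8 (1.89, SE 0.63, adjusted p = 0.0237). H3C8, an H3 gene, had signals of 201, 175 and 204 with doxorubicin against 177, 189 and 31.8 untreated, and 24.0, 93.2 and 68.0 with nutlin-3 against 149, 120.0 and 158 with DMSO. Untreated replicate 3 lay far below the other untreated arrays, and the nutlin-3 arrays lay below the DMSO arrays. Neither agent's own change in H3C8 was called (0.76, adjusted p = 0.158, and -1.14, adjusted p = 0.0694), and without nutlin-3 replicate 1 the difference was no longer called.

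The behaviour of the clustered genes can be set beside a list of 20 genes of DNA replication, such as the MCM helicase subunits and replication factor C. With nutlin-3, 18 of the 20 fell (90.0%) and 0 rose (median -1.03), where 13.9% of all genes fell and 12.5% rose. With doxorubicin, 10 of the 20 fell and 3 rose (median -0.27), where 25.6% of all genes fell and 30.1% rose. MCM2 was among those that fell, at -0.90, and FEN1, a flap endonuclease, was among those that rose, at 0.91. The difference of the changes was more positive for 15 of the 20 (75.0%) and more negative for 0, at a median of 0.78. Of all genes, 21.8% were called more positive and 17.7% more negative. For the 28 clustered histone genes the median difference was -0.15, and for all genes it was 0.07. MCM2 and MCM6 fell by 1.47 each with nutlin-3, while the largest fall among the clustered genes called with that agent was the -0.94 of H2BC15.

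**Figure D4:**
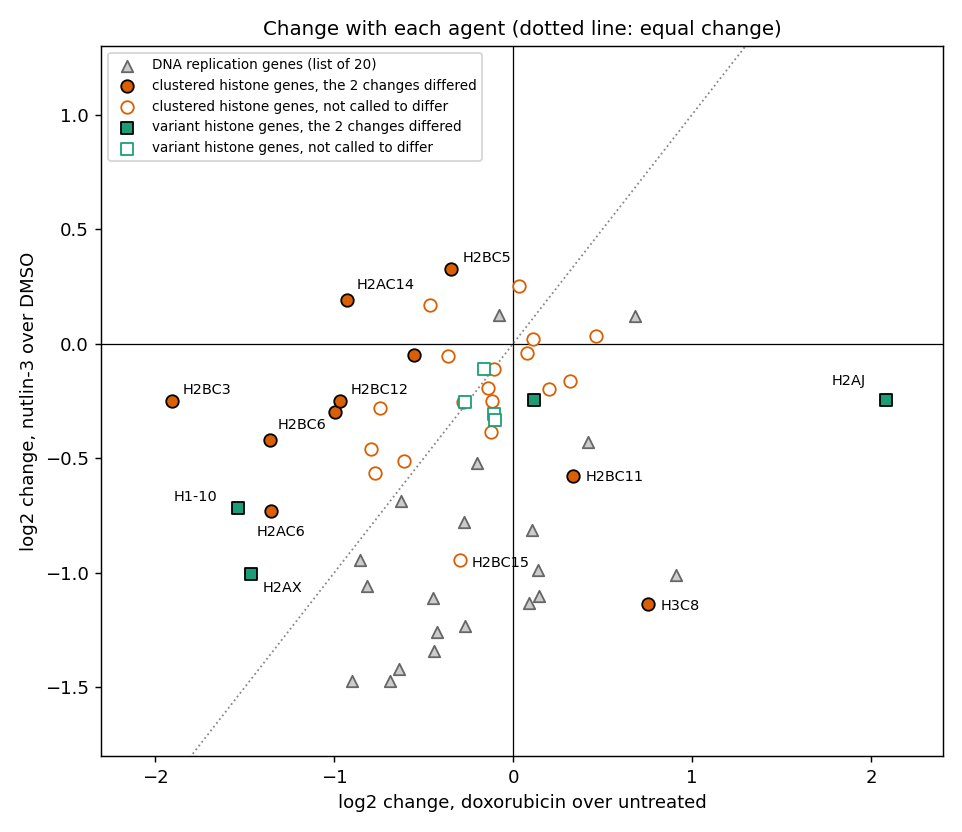
Log2 change with doxorubicin over untreated cells (horizontal) against the change with nutlin-3 over DMSO (vertical) for 28 clustered and 8 variant histone genes and for a list of 20 DNA replication genes; filled histone symbols are genes whose 2 changes differed at an adjusted p under 0.05, and the dotted line marks equal change. Most replication genes lie below the line, 10 histone genes lie filled above it, and H2AJ lies far to the right.

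Histone gene transcription needs the coactivator NPAT at the clusters, and the stem-loop ends are made by a processing machinery that includes SLBP, the stem-loop binding protein, and the U7 particle with LSM10 and LSM11. Of 20 such genes tested, 6 fell and 3 rose with doxorubicin (median 0.02), and 6 fell and 0 rose with nutlin-3 (median -0.12). Over all genes tested, 25.6% fell and 30.1% rose with doxorubicin, and 13.9% fell and 12.5% rose with nutlin-3. LSM11 rose by 1.08 with doxorubicin (adjusted p = 2.15e-07) and fell by 0.37 with nutlin-3. DHX9, an RNA helicase, fell by 1.10 with doxorubicin, and MIF4GD, an SLBP partner in translation, fell by 0.90. With nutlin-3, CASP8AP2 (FLASH, which joins both steps) fell by 0.83 and SLBP fell by 0.79. NPAT fell by 0.57 with nutlin-3 and was at 0.03 with doxorubicin (adjusted p = 0.842).

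Of 24 histone chaperone genes tested, 9 fell and 3 rose with doxorubicin (median -0.05), and 13 fell and 0 rose with nutlin-3 (median -0.40). The shares were 37.5% and 12.5% with doxorubicin (25.6% and 30.1% over all genes) and 54.2% and 0% with nutlin-3 (13.9% and 12.5% over all genes). ASF1B, which hands H3 and H4 to the assembly factor CAF-1, rose by 1.11 with doxorubicin and fell by 0.81 with nutlin-3, and the 2 changes differed by 1.92 (adjusted p = 2.33e-07). The CAF-1 subunits CHAF1B and CHAF1A fell by 1.03 and 0.97 with nutlin-3, and were at 0.54 (not called) and -0.01 with doxorubicin. SSRP1, a subunit of FACT, which moves H2A and H2B past polymerases, fell by 0.93 with doxorubicin, and ATRX, which deposits H3.3, fell by 0.70.

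Of 15 genes for the exchange of H2A.Z, 8 fell and 1 rose with doxorubicin (median -0.30), and 4 fell and 1 rose with nutlin-3 (median -0.13). The shares were 53.3% and 6.67% with doxorubicin (25.6% and 30.1% over all genes) and 26.7% and 6.67% with nutlin-3 (13.9% and 12.5% over all genes). ANP32E, the chaperone that takes H2A.Z out of nucleosomes, had the largest fall of the list with both agents. Its mean signal was 1767 ± 53.1 with doxorubicin, against 7226 ± 625 untreated, and 3915 ± 196 with nutlin-3, against 7858 ± 124 with DMSO (SD, n = 3 each). It fell by 2.02 with doxorubicin and by 1.00 with nutlin-3 on the log2 scale. KAT5, the acetyltransferase of the TIP60 exchange complex, fell by 0.95 with doxorubicin, and ZNHIT1, a subunit of the SRCAP exchange complex, rose by 0.72 with doxorubicin and 0.41 with nutlin-3. Of 2 histone-fold genes outside the name rule that were tested, the centromeric H3 variant gene CENPA fell by 1.10 with doxorubicin and 1.18 with nutlin-3, and CENPX fell by 0.39 and 0.41.

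DMSO against untreated cells was compared because both serve as controls, and this comparison shares its arrays with the others. Of the clustered genes 3 were lower and 1 higher with DMSO, where 5.98% of all genes were lower and 8.14% higher. H4C1 had signals of 51.2, 13.4 and 48.3 with DMSO, against 76.8, 114 and 90.7 untreated, a log2 change of -1.11 (SE 0.33, adjusted p = 0.0352) with 2 DMSO arrays under the filter's signal. H2AC14 and H1-2 gave -0.97 and -0.61, and the higher gene was H2BC11. Single arrays decided 3 of these calls: that of H4C1 was lost without any 1 untreated array or DMSO replicate 2, that of H2AC14 without DMSO replicate 2, and that of H2BC11 without untreated replicate 1 or 2 or DMSO replicate 2 or 3. Of the variants only H2AX was called, at -0.56.

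Histone copies are so alike that 29 further probe sets were paired with several genes, at least 1 of them a histone gene, and these are given by family only. Of the 25 past the filter, 5 were called lower and 5 higher with doxorubicin, and 5 lower and 0 higher with nutlin-3. Over all 32768 probe sets, 23.6% were called lower and 23.4% higher with doxorubicin, and 9.49% lower and 8.33% higher with nutlin-3. The lower sets with doxorubicin were 4 of 4 H2B sets (-1.28 to -0.72) and 1 of 5 H4 sets (-1.16). The higher ones were 4 of 8 sets of the variant H3 genes, those of H3.3 (0.50 to 0.69), and 1 of 5 H2A sets (0.81). These H3.3 sets were the ones also paired with MIR4738. With nutlin-3 the lower sets were 2 of the H2B sets, 2 of the H4 sets and 1 of 2 sets that pair an H2A with an H3 gene. Signal of a named clustered gene may likewise include its near-identical copies, and to what extent was not tested.

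Same-group arrays correlated at 0.972 to 0.987 across probe sets, and array medians ran between 79.6 and 113.6. Of the osteoblast markers 6 of 8 had a probe set of their own, of which COL1A1, SPARC and RUNX2 passed the filter and COL1A2, ALPL and SP7 did not. Their summed signal was 55833 to 62206 with doxorubicin and 48343 to 55443 untreated, and 53423 to 57948 with nutlin-3 and 49544 to 57073 with DMSO. COL1A1 and SPARC made up nearly all of it (means of 35959 and 22744 with doxorubicin, against 970 for RUNX2). RUNX2 was called lower with both agents, at -0.75 with doxorubicin and -0.38 with nutlin-3. COL1A1 was called higher with doxorubicin (0.26) and not with nutlin-3, and SPARC was called with neither. Leukocyte markers (5 with a probe set) summed to 514 to 806 with doxorubicin and 176 to 280 untreated, and 322 to 448 with nutlin-3 and 132.8 to 193 with DMSO, where LAPTM5 rose with both agents (by 2.35 with doxorubicin and 1.84 with nutlin-3) and the defining marker PTPRC was under the filter. Epithelial markers (5) summed to 19748 to 24622 with doxorubicin, 27658 to 28877 untreated, 26008 to 27457 with nutlin-3 and 20490 to 21162 with DMSO, and endothelial markers (4) to at most 330.1. The part of these markers in the histone changes was not tested.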

How the data were processed

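Transcript levels had been measured in U2OS cells on 12 arrays. The deposited values are linear intensities, 1 for every probe set on an array. Per the submitters' processing notes the authors used MAS5 to make the intensity values, and its version and settings are not given in the sources used here. Trimmed means (2% at each end) were 500.1 on every array, so the arrays share that scale. No detection calls were used.

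Control probe sets were left out. Intensities were turned into log2(value + 16), which understates the change of dim genes, and probe sets under the 40th percentile of the mean (a signal of 49.3) were dropped. For each gene the brightest probe set on average was used, out of those that GEO's platform annotation pairs with 1 gene, and symbols follow RefSeq (GRCh38.p14). Members were found through RefSeq synonyms because the annotation holds current symbols. The tests used limma 3.58.1 under R 4.3.3 (lmFit, eBayes with an intensity trend), 1 fit of 4 group means over 12 arrays, with Benjamini-Hochberg adjustment over 13673 genes, called under 0.05. SE is that of the moderated fit. The fit was checked on simulated data. The number of arrays limits the precision.

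The members and gene lists were chosen with earlier results of these data known. Per-array values are given for members called in a comparison and among the 4 largest rises or falls of their class in it; lists give up to 2 called rises and 2 falls per comparison, and some members beyond these are named with single values. Some genes were named after their values were seen (NPAT, CHAF1A and CHAF1B with doxorubicin, H2BC12 with doxorubicin, H3C1).

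Alternatives were a stricter threshold (adjusted p under 0.01), the loss of each array in turn, a block for the replicate number, fits without a trend or of 6 arrays, a 60th percentile filter or none, a pseudocount of 1 or 64, quantile or median scaling, other choices of probe set, and DMSO as the control for doxorubicin. A fit of probe sets and a fit with doxorubicin array 1 alone were added after seeing the data. Same-numbered arrays did not deviate together (correlations of deviations between -0.09 and 0.17), so the numbers do not pair them.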

Additional observations from a re-analysis of the deposited data

Results flagged for a closer look

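For 14 histone genes the change with doxorubicin against untreated cells differed from the change with nutlin-3 against DMSO by limma's test of the difference itself, at an adjusted p under 0.05 over all genes. The doxorubicin change minus the nutlin-3 change was negative for 10 of them on the log2 scale: H2BC3 at -1.66, H2AC14 at -1.12, H2BC6 at -0.94, H1-10 at -0.82, H2BC12 at -0.72, H2BC9 at -0.70, H2BC5 at -0.67, H2AC6 at -0.63, H1-2 at -0.51 and H2AX at -0.46. It was positive for 4: MACROH2A1 at 0.36, H2BC11 at 0.91, H3C8 at 1.89 and H2AJ at 2.33. These were 27.8% and 11.1% of the 36 histone genes tested. Of all genes tested, 17.7% were called more negative and 21.8% more positive. The difference also holds the gap between both controls, which was itself called for H2AC14, H1-2, H2AX and H2BC11, and its part was not tested. Groups of 3 arrays were not searched for outlying samples.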

How the results depend on the processing

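Over 45 called gene results and up to 27 alternatives, 1024 of 1143 values kept their direction and call, 116 lost the call and 3 turned sign; 19 results lost no call, among them H2AJ, H2AX, H1-10 and H2AC6 with doxorubicin. The sign turned only with DMSO as the control for doxorubicin, for H1-2 (0.057), H2AC14 (0.043) and H4C9 (0.082); there 7 clustered genes were lower and 3 higher, against 11 and 0. The shares of all genes under that control were not computed, and the cause was not tested. With doxorubicin, clustered genes higher were 1 without a filter, and variants higher were 2 under quantile scaling, the mean of probe sets or probe sets other than _x_at and _s_at. With nutlin-3, clustered genes lower were 9 in the fit of 6 arrays, 3 without a filter and 1 at an adjusted p under 0.01, clustered genes higher were 0 under median centring, no filter, the mean of probe sets, no trend or p under 0.01, and variants lower were 2 under median centring. For the difference, clustered genes lower were 5 at p under 0.01, clustered genes higher were 1 under median centring, the 60th percentile filter or no trend and 0 at p under 0.01 or with doxorubicin array 1 alone, variants lower were 1 under quantile scaling, no filter, no trend or p under 0.01, and variants higher were 1 under median centring or with doxorubicin array 1 alone. For DMSO against untreated, clustered genes higher were 0 without a filter or at p under 0.01, variants lower were 0 under median centring or the mean of probe sets, and variants higher were 1 under quantile scaling. Leaving out 1 array gave 9 to 11 clustered genes lower and 0 to 1 higher with doxorubicin, 2 to 7 lower and 0 to 1 higher with nutlin-3, 8 to 8 lower and 1 to 2 higher for the difference, and 1 to 3 lower and 0 to 1 higher for DMSO. For variants lower it gave 2 to 3 with doxorubicin, 3 to 5 with nutlin-3, 1 to 2 for the difference and 1 to 2 for DMSO. With the replicate block 10 clustered genes were lower with doxorubicin, since H4C9 was no longer called (adjusted p = 0.0527), and no other count moved. Median centring moved the median change of all genes with doxorubicin to -0.10, against 0.08 as deposited. Detection calls were not used, so signal over background limits the dim H3 and H4 genes.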
